A study of Homo sapiens with 8 samples.

Results

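The genes described here silence retroelements or methylate DNA: TRIM28, SETDB1, ATF7IP, MPHOSPH8, MORC2, PPHLN1, DNMT1, DNMT3A, DNMT3B and EHMT2. They are 10 of the 20043 genes with a symbol, and all probes that the platform annotation pairs with them were taken from the non-normalized table, 20 of 47312. The question was whether silencer transcripts were lower in the cells treated with siHBO1, in which interferon-stimulated genes such as CXCL10 rose. The arrays measured RNA of OVCAR-3, an established human ovarian carcinoma cell line, 48 h after transfection. The siHBO1 group (4 arrays) had received siRNA against HBO1, a histone acetyltransferase whose gene symbol is KAT7, and the siCTRL group (4 arrays) scramble siRNA. All arrays come from 1 cell line, and the labels do not say whether replicates were separate cultures. Each p-value therefore reflects the spread among these 8 arrays alone, and that spread may be technical. The labels give no siRNA sequence.

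Retroelements are copies of transposable elements and ancient retroviruses, and most are held silent by repressive histone marks and DNA methylation. TRIM28, brought to them by KRAB zinc finger proteins, recruits SETDB1, which methylates histone H3 at lysine 9, and ATF7IP keeps SETDB1 stable in the nucleus. The HUSH complex, of which MPHOSPH8 and PPHLN1 are subunits, works with SETDB1 and the ATPase MORC2 to silence retroelements, among them young LINE elements. DNMT3A and DNMT3B lay down new DNA methylation and DNMT1 copies it after replication. Where these systems fail, RNA from retroelements can form double strands that cytosolic sensors read as viral, which induces interferon-stimulated genes.

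No silencing or DNA methylation gene passed the test in either direction. Of the 10 genes, 8 had a probe detected on enough arrays to be tested, and their differences, siHBO1 minus siCTRL on the log2 scale, ran from -0.03 for PPHLN1 to 0.18 for MORC2. In all, 0 of the 8 passed at a limma adjusted p under 0.05 (0 also at an unadjusted p under 0.05), with or without the replicate number as a block, against 0.0347% of the 17297 genes tested (0.0289% higher and 0.00578% lower, and 0.335% with the block). At an unadjusted p under 0.05 the share of all genes was 3.79%, or 7.6% with the block. All 8 of the members' 95% confidence intervals held 0, as did 96.2% of those of all genes. The members' median difference was 0.02, beside -0.01 for all genes tested. In the same comparison 3 of 31 interferon-stimulated genes tested passed, all 3 higher in siHBO1, and 19 did with the block.

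KAT7, the targeted gene, stood at 6.66, 6.86, 7.04 and 7.43 on siHBO1 replicates 1 to 4, against 7.67, 7.97, 7.93 and 7.35 on siCTRL replicates 1 to 4 (normalized log2 intensity). Within numbered pairs it was lower on siHBO1 replicates 1, 2 and 3, while the array labelled siHBO1 replicate 4 stood 0.08 above siCTRL replicate 4. Over all 8 arrays the difference was -0.73 (SE 0.19, n = 4 each), with a 95% interval of -1.16 to -0.30, below 0. The unadjusted p was 0.004 in limma, or 0.0075 with the replicate block. The difference did not pass over all genes (limma adjusted p = 0.586, or 0.381 with the block). The arrays detected 20504 to 22111 probes each, and their number limits the precision. Both replicate 1 arrays stood apart on the first principal component, which held 58.2% of the variance. All 10 markers of ovarian epithelial carcinoma cells were detected, each on at least 6 of the 8 arrays, while the leukocyte genes PTPRC and CD3E and the endothelial gene PECAM1 were detected on 0 arrays. Of the 7 markers of other cell types with a probe, the monocyte gene CD14, the endothelial gene VWF and the stromal gene COL1A1 were detected on 8 arrays and the stromal gene DCN on at most 2, and 0 of the 3 tested passed (limma, with 0 at an unadjusted p under 0.05).

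TRIM28, the corepressor that KRAB zinc finger proteins recruit, was measured by 1 probe, ILMN_1736575. Its normalized level was 10.60, 10.35, 10.35 and 10.32 on siHBO1 replicates 1 to 4, against 10.60, 10.35, 10.30 and 10.36 on siCTRL replicates 1 to 4. Both replicate 1 arrays were the highest of their group, and the groups overlapped almost completely. The difference was 0.0055 (SE 0.112), and its 95% confidence interval, -0.25 to 0.26, spans a level 15.7% lower to one 19.5% higher in siHBO1 (limma adjusted p = 1.00).

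SETDB1, the lysine 9 methyltransferase that TRIM28 recruits, stood at 10.53, 9.88, 9.94 and 9.83 on siHBO1 replicates 1 to 4, against 10.24, 10.08, 9.86 and 9.91 on siCTRL replicates 1 to 4. Again replicate 1 was highest in both groups, and the remaining arrays of the groups overlapped. The difference was 0.02 (95% interval -0.36 to 0.40), so that a fall of up to 22.2% or a rise of up to 32.0% lies within the interval. Without siHBO1 replicate 1 the difference was -0.14, and without replicate 1 of both groups it was -0.071. Neither passed. EHMT2, which encodes the lysine 9 methyltransferase G9a, had 1 tested probe, ILMN_1751081. It read 8.19, 8.08, 8.15 and 7.98 on siHBO1 replicates 1 to 4 and 8.30, 8.04, 7.93 and 7.92 on siCTRL replicates 1 to 4. These ranges overlapped, with a difference of 0.06 (95% interval -0.20 to 0.31). Its other probe, ILMN_1700791, was detected on 1 siCTRL array and was not tested.

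ATF7IP, the partner that stabilises SETDB1, had 1 probe, ILMN_1716435, and it was detected on 0 of the 8 arrays. Its detection p-values ran from 0.0792 to 0.536, so that its level in either group is known only to be not well above background. No fold is given for it.

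The HUSH subunit MPHOSPH8, which binds methylated lysine 9, stood at 9.47, 9.57, 9.79 and 9.58 on siHBO1 replicates 1 to 4, against 9.28, 9.55, 9.45 and 10.06 on siCTRL replicates 1 to 4. One control array, siCTRL replicate 4, was the highest of all, and the siHBO1 values lay between the extremes of the control group. The difference was 0.02 (95% interval -0.36 to 0.39). Without replicate 4 of both groups it was 0.18, and it did not pass.

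MORC2, an ATPase that compacts chromatin at HUSH targets, had the largest difference among the tested members. It stood at 10.48, 9.94, 10.07 and 9.76 on siHBO1 replicates 1 to 4, against 9.99, 10.05, 9.61 and 9.88 on siCTRL replicates 1 to 4. The high value on siHBO1 replicate 1 and the low one on siCTRL replicate 3 set the groups' means apart, while the other 6 arrays overlapped. The difference of 0.18 (SE 0.168, 95% interval -0.19 to 0.56) did not pass (limma adjusted p = 1.00, or adjusted p = 0.864 with the replicate block). It was 0.04 without siHBO1 replicate 1 and 0.08 without replicate 1 of both groups.

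PPHLN1, which encodes the HUSH subunit periphilin, had 4 probes, all tested. The brightest, ILMN_1791093, read 12.54, 12.57, 12.49 and 12.62 on siHBO1 replicates 1 to 4, against 12.53, 12.58, 12.44 and 12.80 on siCTRL replicates 1 to 4. The siHBO1 values all lay inside the control range. The difference was -0.03 (95% interval -0.27 to 0.21). Among all probes tested one by one, ILMN_1706593 differed by 0.11, ILMN_1805788 by 0.02 and ILMN_2322842 by -0.03, each with an interval that held 0. The 4 probes thus disagreed in sign, and none passed (limma adjusted p = 1.00, adjusted over 21377 probes). In that fit 0% of all probes passed, 3.7% had an unadjusted p under 0.05, and 0.323% passed with the replicate block.

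DNMT1, the maintenance methyltransferase, was measured by 1 probe, ILMN_1760201. It stood at 13.86, 13.90, 14.02 and 13.71 on siHBO1 replicates 1 to 4, against 13.87, 13.69, 13.77 and 13.86 on siCTRL replicates 1 to 4. The lowest control and the lowest siHBO1 values were nearly equal, and the groups overlapped. The difference was 0.08 (SE 0.103, 95% interval -0.15 to 0.31), which spans a level 10.2% lower to one 23.9% higher in siHBO1.

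DNMT3B, a methyltransferase active in embryonic and many cancer cells, had 5 probes, of which 4 were tested. The brightest, ILMN_2328972, read 10.61, 10.62, 11.08 and 10.86 on siHBO1 replicates 1 to 4, against 10.45, 10.93, 10.78 and 10.95 on siCTRL replicates 1 to 4. High and low arrays were found in both groups, and the difference was 0.01 (95% interval -0.33 to 0.36). The other tested probes did not share a sign. ILMN_1734285, a dim probe detected on 3 siHBO1 arrays and 1 siCTRL array, differed by 0.19 and was higher in all 4 pairs, whereas ILMN_2328977 differed by -0.17 and was lower in all 4 pairs. ILMN_1794692 differed by -0.03. These 2 of the 14 tested member probes are 14.3%, beside 15.3% of all 21377 probes that went one way in every pair, so the share was close to the background. The fifth probe was detected on 0 arrays.

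DNMT3A, the other de novo methyltransferase, had 3 probes and none reached the 4 arrays required for the test. ILMN_1676128 was detected on 2 siHBO1 arrays and 1 siCTRL array. It read 6.24, 6.67, 6.65 and 6.35 on siHBO1 replicates 1 to 4, against 6.26, 6.78, 6.28 and 6.47 on siCTRL replicates 1 to 4, close to the floor of the scale. ILMN_1654945 was detected on 1 siHBO1 array and ILMN_1698137 on 0 arrays. A fall of DNMT3A or ATF7IP could not be seen with these probes, since both groups lay near background.

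**Figure D1:**
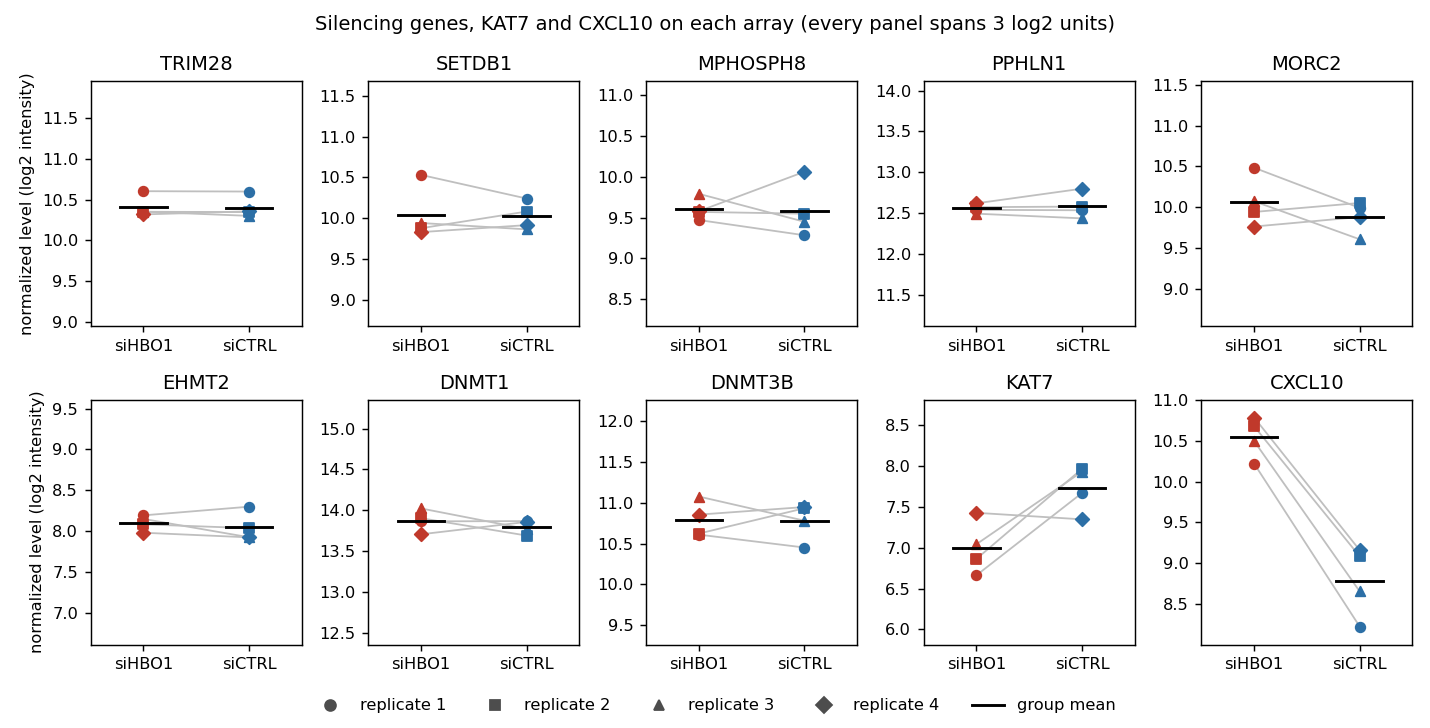
Normalized log2 intensity (y axis) on the siHBO1 and siCTRL arrays for the 8 tested silencing and DNA methylation genes, KAT7 and the interferon-stimulated gene CXCL10; each point is 1 array, its shape the replicate number, grey lines join arrays of the same number and bars are group means (n = 4 each). The silencer groups overlap, KAT7 is lower on siHBO1 replicates 1, 2 and 3, and CXCL10 is higher on all 4 siHBO1 arrays.

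The replicate 1 arrays of both groups deviated together. Both replicate 1 arrays lay outside the range of the other 6 for 4 of the 8 tested members, and for 38.9% of all genes tested. TRIM28, SETDB1 and EHMT2 were higher on the replicate 1 arrays, by 0.26, 0.47 and 0.23 on average, and DNMT3B was lower (-0.34). For PPHLN1 the sign depended on the probe, with ILMN_1805788 higher by 1.18 and ILMN_2322842 lower (-0.55) on replicate 1. These arrays also had the lowest median intensities, 240 on siHBO1 replicate 1 and 224 on siCTRL replicate 1, against 280 to 324 on the other 6. The part of that in the levels was not tested. The median absolute difference between replicate 1 and the other arrays was 0.23 over all genes, beside 0.08 between siHBO1 and siCTRL. Without replicate 1 of both groups 0 members passed (limma, with 0 at an unadjusted p under 0.05).

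**Figure D2:**
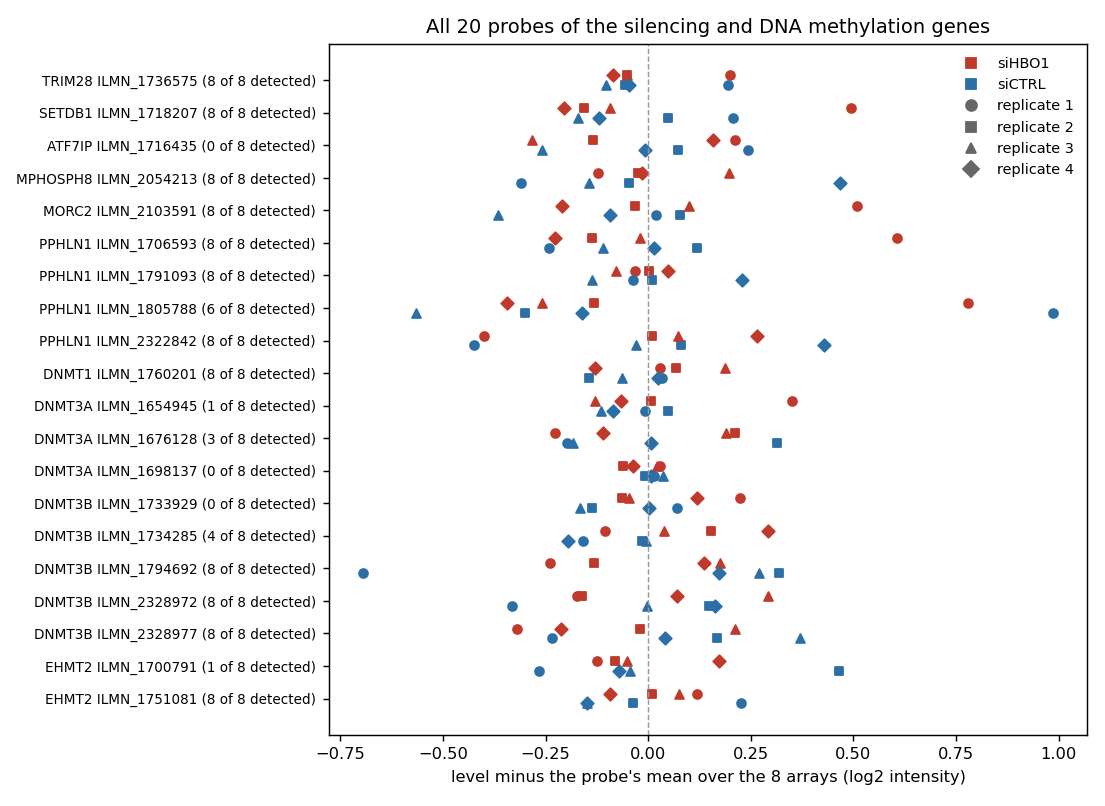
Level of each of the 20 probes on each array relative to that probe's mean over the 8 arrays (x axis, log2 intensity), with siHBO1 arrays in red, siCTRL arrays in blue and point shape for the replicate number; labels give how many arrays detected the probe. Red and blue overlap for all 20 probes, while both replicate 1 points lie outside the other 6 for TRIM28, SETDB1 and 2 PPHLN1 probes, among others.

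A list of interferon-stimulated genes was set beside the silencers. Of 33 listed genes 31 were tested, and all 31 had a positive difference, from 0.05 to 2.58, the median being 1.26. The genes RIGI, IRF7 and CXCL10 rose at a limma adjusted p under 0.05, and 19 members did with the replicate block, against 0.0289% and 0.272% of all genes higher. CXCL10, a chemokine that attracts T cells, read 10.22, 10.68, 10.50 and 10.78 on siHBO1 replicates 1 to 4, against 8.22, 9.08, 8.65 and 9.16 on siCTRL replicates 1 to 4. RIGI, a cytosolic sensor of double-stranded RNA, read 9.77, 9.90, 10.06 and 9.88 on siHBO1 replicates 1 to 4, against 8.53, 8.96, 8.85 and 8.86 on siCTRL replicates 1 to 4. Neither gene's groups overlapped, and the same was true of 27 list members in all, where 1.35% of all genes were higher without overlap. One of the 27, CMPK2, was detected on 4 arrays, the fewest that the filter allows. It may have been kept through the siHBO1 group alone, so its sign and lack of overlap add no support. The list was written with earlier results of these arrays known, and it is no independent evidence of its direction. The count was 0 when siHBO1 replicate 2, 3 or 4 or siCTRL replicate 2, 3 or 4 was left out, and also with median scaling, no normalization, the authors' processed values or every probe tested on its own. The count of 19 with the block was 0 without replicate 2 or replicate 3 of both groups, 4 without replicate 1 and 16 without replicate 4. Between 27 and 29 list genes had an unadjusted p under 0.05 in limma under these settings, or 38 of 40 probes.

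Among the probes that stood for the 8 tested members, the highest upper bound was 0.56, for MORC2. Among the interferon-stimulated genes, IFI6 (0.05), XAF1 (0.15) and MX2 (0.44) had point differences below that bound. The point differences of the other 28 lay above it, but the intervals of some of these reached below 0.56. For the probes that stood for the 8 genes, the lowest lower bound was -0.36, for SETDB1, a fall of 22.2%. These bounds come from the fit without the replicate block. With the block the SE was lower for all 8 genes, as for SETDB1 (0.106 against 0.169) and TRIM28 (0.0806 against 0.112). No interval is given for that fit. Some other tested probes had lower bounds below -0.36. The interval was -0.77 to 0.81 for PPHLN1 ILMN_1805788, and it reached down to -0.53 for DNMT3B ILMN_1794692 and ILMN_2328977. The SETDB1 difference of -0.14 without siHBO1 replicate 1 has an SE of 0.118, and that of -0.071 without replicate 1 of both groups an SE of 0.096. These bounds concern transcripts and say nothing of protein, complex formation or activity.

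**Figure D3:**
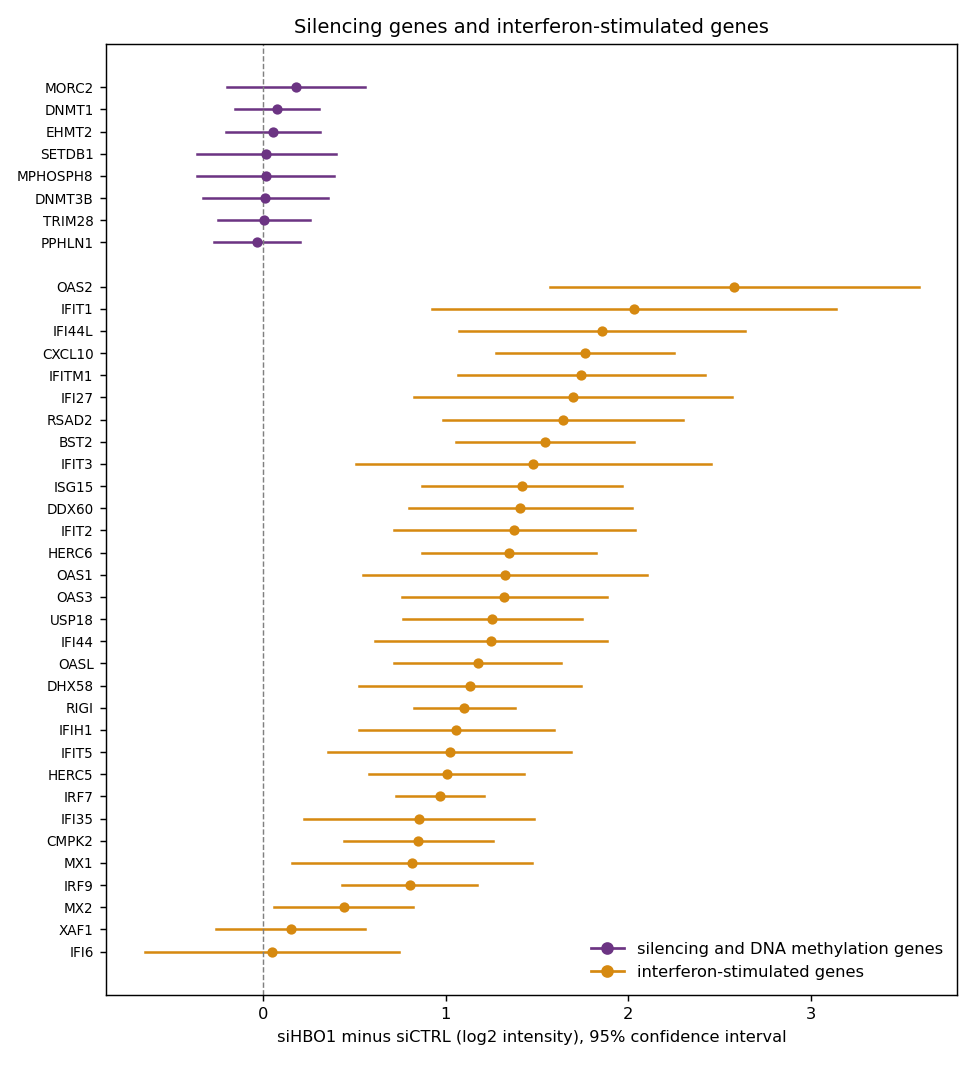
Difference siHBO1 minus siCTRL (x axis, log2 intensity) with its 95% confidence interval from limma for the 8 tested silencing and DNA methylation genes (purple) and 31 interferon-stimulated genes (orange). All 8 purple intervals hold 0, whereas 29 of the 31 orange intervals lie above it, the exceptions being XAF1 and IFI6.

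The members kept no common direction from pair to pair. Pairs 2 to 4 rest on the replicate numbers in the labels, since correlations between arrays did not single them out. The interferon list's median difference was 1.79, 0.95, 1.26 and 1.02 in pairs 1 to 4, positive in each. The members' median was 0.08, -0.0018, 0.24 and -0.10 in the same pairs. In pair 3 all 8 tested members were higher in siHBO1, and in pair 4 it was 1 of 8, EHMT2, while 50.1% and 48.5% of all genes were higher in those pairs. Pair 4 held the lowest difference of a tested member, MPHOSPH8 at -0.48, together with PPHLN1 at -0.18 and DNMT1 at -0.15, and it is the pair in which KAT7 was not lower. No tested member gene went one way in all 4 pairs, which 15.6% of all genes did. The direction of the pair 4 values rests on the labels, and there KAT7 was not lower on the array labelled siHBO1 while the interferon list's median was positive as in the other pairs. With 4 pairs, no correlation was computed.

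**Figure D4:**
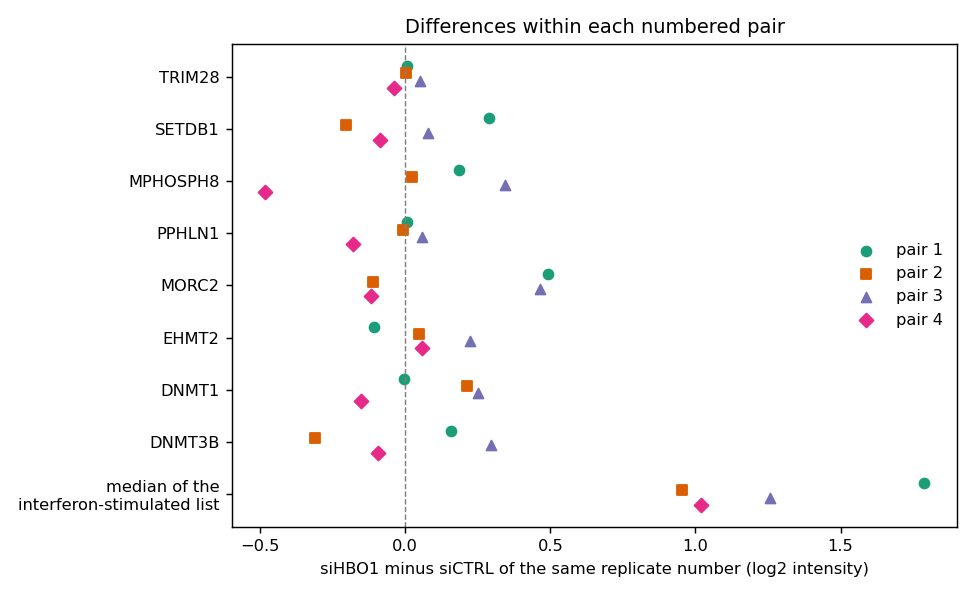
Difference between siHBO1 and siCTRL arrays of the same replicate number (x axis, log2 intensity) for the 8 tested silencing and DNA methylation genes and for the median of the interferon-stimulated list; each point is 1 pair, by shape and colour. The member points scatter on both sides of 0, from -0.48 to 0.49, and the list medians lie between 0.95 and 1.79.

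Both gene lists were also described by promoter sequence, which was not used to choose their members. RefSeq promoter windows (GRCh38.p14, 250 bases before to 50 after a start site) were found for 9 of the 10 members, in 21 windows, and for 25 of the 33 interferon-stimulated genes, in 34 windows. The core of the interferon-stimulated response element, GAAA, any 2 bases and GAAA again, searched on both strands with overlaps allowed, lay in a window of 17 of the 25 interferon-stimulated genes and of 1 of the 9 members, beside 4.38% of all 27305 genes in the table. That member was ATF7IP, with a match in 3 windows of alternative start sites, whose probe was not detected. Among genes tested the share was 3.87%. Genes with more windows have more places for a match. By window the share was 61.8% in the interferon list and 14.3% in the members. It was 3.57% over all windows and 2.85% over those of genes tested. Windows of members held a median of 22 CpG sites, against 24 in windows of all genes tested and 14 in all windows of the table, and interferon-stimulated windows held 7. The stretches shown are those of MORC2 and DNMT1, the members with the smallest p, and of CXCL10 and BST2, which rose, BST2 with the replicate block only (limma adjusted p = 0.0066, with a difference of 1.54). Capitals mark each CG in the first pair and each match to the motif in the second. All lie before the annotated start.
DNMT1 (chr19:10194954-10195103, minus strand): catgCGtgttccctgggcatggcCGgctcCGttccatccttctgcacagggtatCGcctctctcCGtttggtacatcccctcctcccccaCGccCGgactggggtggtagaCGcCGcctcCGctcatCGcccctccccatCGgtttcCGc
MORC2 (chr22:30968775-30968924, minus strand): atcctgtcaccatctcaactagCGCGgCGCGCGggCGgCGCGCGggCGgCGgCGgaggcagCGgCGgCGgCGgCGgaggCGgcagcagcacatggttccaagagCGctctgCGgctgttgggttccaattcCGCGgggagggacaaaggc
CXCL10 (chr4:76023598-76023747, minus strand): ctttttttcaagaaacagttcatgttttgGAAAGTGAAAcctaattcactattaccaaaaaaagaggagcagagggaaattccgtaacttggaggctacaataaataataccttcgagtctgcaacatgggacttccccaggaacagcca
BST2 (chr19:17405631-17405780, minus strand): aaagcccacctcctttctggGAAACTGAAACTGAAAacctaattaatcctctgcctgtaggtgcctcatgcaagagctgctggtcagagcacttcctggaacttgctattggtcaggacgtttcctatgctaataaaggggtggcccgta
The DNMT1 stretch holds 13 CG sites and that of MORC2 22, and neither holds the motif. CXCL10 has 1 match, which begins at -221 from the start site, and BST2 has 2 that overlap, the first beginning at -130. A match is a description of letters and not a site of binding, and the absence of a match concerns this window only. The element is named after interferon-stimulated genes, so its share in that list is no evidence about these arrays.

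Partners in the same pathways gave no call either. Over all genes tested 0.0347% passed, and 3.79%, or 7.6% with the replicate block, had an unadjusted p under 0.05. Of 42 listed partners in histone-based silencing, 36 were tested and 0 passed (limma, with 1 at an unadjusted p under 0.05 and 2 with the replicate block). Their differences were split evenly, 18 positive and 18 negative, with a median of -0.0005. The smallest p belonged to ATF7IP2, a paralog of ATF7IP, which read 8.98, 8.68, 8.62 and 8.97 on siHBO1 replicates 1 to 4, against 8.52, 8.61, 8.54 and 8.56 on siCTRL replicates 1 to 4. Its groups did not overlap, as was true of 2.82% of all genes in either direction, and its difference of 0.26 (SE 0.113) did not pass (limma adjusted p = 1.00). RESF1, which binds SETDB1, differed by 0.19, also without overlap, so that 2 of the 36 were higher without overlap, against 1.35% of all genes, and neither passed. The third was CBX1, a heterochromatin protein 1 paralog, with a difference of 0.28.

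Of 27 listed genes around DNA methylation, which include cofactors of the methyltransferases, demethylation enzymes and readers, 20 were tested and 0 passed (limma, with 0 at an unadjusted p under 0.05 with or without the block). Over all genes the shares were 0.0347% passing and 3.79%, or 7.6% with the block, at an unadjusted p under 0.05. The list's median was 0.01, with 10 positive and 10 negative. The reader ZBTB33 stood at 0.18, CDCA7, a partner of the remodeller HELLS, at -0.15, and the glycosylase TDG at -0.11.

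Genes derived from retroelements and genes that DNA methylation represses in most somatic cells gave no call. With 0.0347% of all genes passing and 3.79% at an unadjusted p under 0.05, a count of 0 in lists of this size says little. Of 31 listed genes derived from retroelements, among them retroviral envelope and gag-like genes, 12 were tested and 0 passed (limma, with 0 at an unadjusted p under 0.05), with a median of 0.03. RTL6 and PEG10, which descend from retrotransposon gag sequences, stood at 0.17 and 0.11, and PNMA3 at -0.13. These single-copy genes do not measure young repeats, for which no probe was used here. Of 42 germline and cancer-testis genes that DNA methylation represses in most somatic cells, 11 were tested and 0 passed (limma, with 0 at an unadjusted p under 0.05). Their median was 0.09, with SPANXB1 at 0.32, XAGE1B at -0.22 and GAGE12F at -0.17. Only detected genes were tested. Some of the 11 had high mean levels in siCTRL, such as PRAME (12.65) and SSX2 (10.50), and others low ones, such as SPANXB1 (6.41). Genes already expressed in siCTRL say little about the release of silent ones. Of 87 probes of that list, 21 to 23 were detected on each siHBO1 array and 19 to 23 on each siCTRL array. Many of these genes have near-identical copies, so their probes may read several.

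Levels most like those of the 2 members with the smallest p were found by Pearson correlation over the 8 arrays. For MORC2 these were TMEM39A (r = 0.986), WDR81 (r = 0.974) and LGMN (r = 0.969). For DNMT1 they were MFSD1 (r = 0.957), FANCG (r = 0.922) and RAB14 (r = 0.921). These genes were picked as the highest among the 12222 tested genes with a symbol, over 8 arrays, so high values can come from that choice alone. The arrays share the replicate 1 deviation described before, though it was small for DNMT1 (0.04). No p is attached to these correlations.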

How the data were processed

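RNA of 8 OVCAR-3 samples was measured on single-colour Illumina BeadChips. The deposited table gives an unnormalized intensity per probe and array and, from the authors, a detection p-value in steps of 1 in 770. The authors' processed values, on a log2 or similar scale that is not stated further, served as an alternative. GenomeStudio and lumi are named, without versions or settings, per the submitters' processing notes.

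Intensities were corrected with nec of limma 3.58.1 in R 4.3.3 (offset 16), put on the log2 scale and quantile-normalized. To be kept, a probe needed detection (p under 0.05) on 4 or more of the 8 arrays, which left 21377. The brightest kept probe by mean stood for its gene, and unnamed probes were tested under their ID, 17297 in all. The annotation pairs 30108 probes with 1 symbol, 8 with several and 17196 with none, and 30069 were matched to RefSeq by Entrez identifier. Groups were compared with lmFit and eBayes, 2-sided, as siHBO1 minus siCTRL, with Benjamini-Hochberg adjustment over all genes and a threshold of 0.05. Other probes of a member came from a fit of every kept probe. The script was tested on simulated data.

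The labels number replicates 1 to 4 in both groups. Deviations of same-numbered arrays from their group means correlated across genes at r = 0.783, 0.324, 0.397 and 0.217, each above the limit of 0.1. Replicates 2 to 4 correlated more highly with another number (0.404, 0.404 and 0.383). For them passing the limit does not single out the same number. Same-numbered arrays count as pairs here by their labels. The fit without the block was the main one. Slide and scan batches were not analysed here. Named genes were the members, KAT7, the 3 smallest p of each related list or its members past the threshold, and 3 genes most like each of 2 members; BST2 was added for its promoter after its values were seen. Members and lists were chosen with earlier results of these data known.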

Additional observations from a re-analysis of the deposited data

Results flagged for a closer look

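For 42 groups of 4 arrays (20 member probes and KAT7, each in siHBO1 and siCTRL), a sample far from the other 3 was looked for, with the gap to its neighbour set against the group's range (Dixon's test at the 95% level). Chance marks about 1 in 20 such groups, and 3 were marked. TRIM28 stood at 10.60 on siHBO1 replicate 1, against 10.35 on the next array. SETDB1 stood at 10.53 on siHBO1 replicate 1, against 9.94 on the next. The DNMT3B probe ILMN_1794692 stood at 9.01 on siCTRL replicate 1, against 9.88 on the next. All 3 are replicate 1 arrays, the pair that stood apart on the first principal component.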

How the results depend on the processing

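Under 29 alternatives 0 members passed in any, in 232 results for the 8 tested members, and 0 had an unadjusted p under 0.05; their differences ran from -0.14 to 0.28. MORC2 and DNMT1 kept a positive sign in all 29. In 39 of the 232 the sign of a small difference turned. TRIM28 stood at -0.015 with no normalization and -0.0023 with array weights, SETDB1 at -0.069, MPHOSPH8 at -0.084 and DNMT3B at -0.071 with array weights, and the mean of the kept probes gave PPHLN1 0.018 and DNMT3B -0.00057. Leaving out arrays gave -0.060 to 0.072 for TRIM28, -0.14 to 0.093 for SETDB1, -0.091 to 0.18 for MPHOSPH8, -0.082 to 0.040 for PPHLN1, -0.096 to 0.12 for DNMT3B and -0.00048 to 0.14 for EHMT2. With the replicate block and replicate 3 left out, TRIM28 stood at -0.0097, SETDB1 at -0.00020, MPHOSPH8 at -0.091, DNMT3B at -0.080 and EHMT2 at -0.00048, without replicate 1 SETDB1 at -0.071, MPHOSPH8 at -0.040 and DNMT3B at -0.036, and without replicate 4 PPHLN1 at 0.019. The cause was not tested.

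Counts over all genes and in the interferon list moved more. With the replicate block 58 genes and 19 list members passed, with array weights 68 and 17, with no background correction 16 and 5, and with offset 50 11 genes. Under median scaling, no normalization, the authors' values or every probe on its own 0 passed, with 28 to 29 list genes (38 of 40 probes) at an unadjusted p under 0.05 in limma. Leaving out arrays gave 0 to 33 genes and 0 to 16 list members. Without replicate 4 of both groups and with the block it was 33 and 16, and KAT7 then passed at -1.01 (limma adjusted p = 0.0394). KAT7 passed in that 1 of the 29 alternatives only. Its difference ran from -1.01 to -0.33 over all 29, and from -1.01 to -0.60 over those that left out arrays. The list's median stayed between 1.02 and 1.43. The replicate block changed no member's call. Signal over background limits ATF7IP and DNMT3A, and 4 arrays a group are among the limits for the rest.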
